A study of Mus musculus with 6 samples.

Results

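The glandular or tissue kallikreins of the mouse are encoded by Klk1 and by the Klk1b genes, a rodent expansion of Klk1 that sits in 1 cluster on chromosome 7. All rows of the deposited count table named Klk1, or with a name that starts with Klk1b, were taken, which gave 24 of 54100 genes. Of these, 14 are protein coding and 10 are annotated as pseudogenes. The 14 rows with 10 or more counts summed over the 6 libraries are described one by one below: Klk1, Klk1b1, Klk1b3, Klk1b4, Klk1b5, Klk1b7-ps, Klk1b8, Klk1b9, Klk1b16, Klk1b21, Klk1b22, Klk1b24, Klk1b26 and Klk1b27. The minimum fell between Klk1b4, with 12 counts in all, and Klk1b11 and Klk1b14-ps, with 9 counts each. The other 8 rows, all pseudogenes, had 0 counts in every library. The low-count filter left 9 of the 14 for testing.

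Tissue kallikreins are secreted trypsin-like serine proteases, made as inactive precursors and best known from the submandibular gland, where many of them are under androgen control. Klk1 itself is the kinin-releasing enzyme of the family, which cuts kininogens to free peptides that act on the bradykinin receptors. The duplicated Klk1b enzymes differ from it in their substrates: some bind or process epidermal growth factor, nerve growth factor or prorenin, and Klk1b21, Klk1b24 and Klk1b27 are known from the Leydig cells of the mouse testis.

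The H3t deletion group had 3 testis libraries from mice that carry a deletion of H3t, the gene of a testis histone H3 variant needed for normal spermatogenesis. The WT group had 3 testis libraries from wild-type mice. The labels give no age, strain or breeding scheme, and beyond a number in each title they do not say that the libraries came from different mice, so p-values cover the variation among these libraries, part of which may be technical. RNA came from testis cryosections that hold every cell type of the organ, and in such bulk samples fewer cells of a type and less RNA per cell cannot be told apart.

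The targeted gene is in the table as H3f4, for which RefSeq lists H3t as a synonym of a protein-coding gene, while GENCODE M21 annotates it as an unprocessed pseudogene. H3f4 had 0 counts in each of the 3 deletion libraries, and 390, 571 and 356 counts in the WT libraries. Library totals ran from 8037826 to 10702930 counts. Counts were scaled to library size as CPM with TMM factors, which were 1.21 to 1.27 in the deletion and 0.794 to 0.806 in WT. Mitochondrial genes took 21.6 to 22.7% of the counts in the deletion and 5.59 to 6.44% in WT. The labelled tissue was checked against marker lists: all 8 Leydig identity genes and all 9 Sertoli genes rose in the deletion, with median log2 fold changes of 3.18 and 2.30, while all 6 spermatid genes and all 5 spermatocyte genes fell, with medians of -9.58 and -5.08. Over all 17038 genes tested, 38.4% were called higher and 46.1% lower, 84.5% in all, so a call in either direction was the common outcome for a tested gene, whatever its family.

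The cluster runs along the plus strand of chromosome 7, over chr7:43942662-44229618 in GRCm38, from Klk1b7-ps at one end to Klk1 at the other. Its members are close copies of each other, which bears on every value below, since a read from a stretch that 2 members share cannot be placed. The coding sequences were 79.6 to 95.2% identical over 91 pairs of the 14 coding members, Klk1b11 included and Klk1b7-ps left out, with a median of 86.0%. Klk1b21 and Klk1b24 shared 92.6% and Klk1b27 and Klk1b24 93.6% of aligned coding bases. The longest run that the coding sequences of Klk1b21 and Klk1b24 have in common is 117 bases across an exon junction, at chr7:44105665-44105877 in Klk1b21 and chr7:44191538-44191749 in Klk1b24. It is shown because reads inside it fit both genes.
Klk1b21 and Klk1b24, shared coding run: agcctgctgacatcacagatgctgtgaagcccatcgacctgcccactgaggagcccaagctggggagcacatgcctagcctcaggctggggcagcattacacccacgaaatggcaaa

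The share of each member's transcript 50-mers that occur in another gene was 1.87% for Klk1b7-ps at the low end and 33.9% for Klk1b24 at the high end, with a median of 17.1% over the 14 members. Klk1b24 shared 20.4% of its 50-mers with Klk1b21 and 10.5% with Klk1b27, and Klk1b21 shared 20.6% of its own with Klk1b24. With 100-mers, the median share fell to 1.43% and the highest was 5.26%. How reads that map to several places were counted is not given in the sources used here. Of 172 coding genes whose transcripts are all exact copies of another gene, 162 had 0 counts and 2 had 10 or more. This does not settle how such reads were counted, since copied genes that are silent in testis would also have 0 counts. Values of the members are therefore uncertain as far as shared stretches go, most of all for Klk1b24, Klk1b21, Klk1, Klk1b8, Klk1b3 and Klk1b4, each with over 20% of 50-mers shared. Klk1b2-ps, with 0 counts in every library, Klk1b7-ps, Klk1b8, Klk1b1 and Klk1b9 also overlap the antisense gene Gm44756, and Klk1 overlaps the antisense gene Gm10109. These overlaps are of whole gene spans, introns included, and overlap of exons was not checked. The strand setting of the counting is not given, so reads of these partners cannot be assigned with certainty.

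Promoters were the 300 bases that RefSeq (GRCm38.p6) gives, 250 before and 50 after the annotated start. In them 13 of 14 coding members hold the letters TTTAAA, at positions -48 to 4 relative to the start. The match at 4, just after the RefSeq start, is that of Klk1b21. GENCODE M21 starts Klk1b21 at chr7:44102328, and the match, which ends at chr7:44102301, lies upstream of that start. In 13.2% of all 32851 promoters of that length TTTAAA is found on either strand. Klk1 is the coding member without it. The canonical TATAAA is in 0 of the 14 and in 13.6% of all promoters. The stretch of 190 bases before TTTAAA, with the motif itself, was compared over 78 pairs of members, and identity ran from 72.0 to 99.5% with a median of 81.2%. The windows of 5 members are shown, all on the plus strand with TTTAAA in capitals, because the first 3 belong to the most abundant members of the deletion testis, the next to a further member with higher CPM there, and the last to the most abundant member of the WT testis.
Klk1b24 (chr7:44188015-44188210): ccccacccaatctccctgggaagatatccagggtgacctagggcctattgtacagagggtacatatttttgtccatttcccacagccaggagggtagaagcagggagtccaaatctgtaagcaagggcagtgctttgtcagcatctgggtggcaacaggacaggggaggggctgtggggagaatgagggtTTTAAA
Klk1b21 (chr7:44102106-44102301): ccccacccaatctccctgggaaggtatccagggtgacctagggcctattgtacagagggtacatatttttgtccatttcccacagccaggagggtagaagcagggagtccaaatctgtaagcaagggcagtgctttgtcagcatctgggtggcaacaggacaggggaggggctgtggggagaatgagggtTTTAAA
Klk1b27 (chr7:44052083-44052278): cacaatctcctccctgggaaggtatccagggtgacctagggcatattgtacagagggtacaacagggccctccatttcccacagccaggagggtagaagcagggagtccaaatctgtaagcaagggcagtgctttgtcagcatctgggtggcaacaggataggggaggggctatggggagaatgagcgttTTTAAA
Klk1b22 (chr7:44112443-44112638): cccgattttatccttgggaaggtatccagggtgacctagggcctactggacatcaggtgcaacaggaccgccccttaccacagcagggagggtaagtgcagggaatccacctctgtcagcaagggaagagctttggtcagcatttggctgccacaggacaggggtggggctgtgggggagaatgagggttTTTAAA
Klk1b8 (chr7:43950432-43950627): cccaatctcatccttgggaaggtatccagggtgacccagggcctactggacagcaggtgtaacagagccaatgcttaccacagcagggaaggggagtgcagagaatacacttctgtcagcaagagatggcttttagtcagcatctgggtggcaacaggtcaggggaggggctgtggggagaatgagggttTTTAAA

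The windows of Klk1b21 and Klk1b24 were 99.5% identical, with 1 difference in 196 bases, G24A, written with the Klk1b21 base first and counted from 1 at the 5′ end of the window. Klk1b27 was 89.9% identical to Klk1b21 and 89.4% to Klk1b24 in the same window. The median identity of the windows was 80.9% over 10 pairs of members both called higher and 81.1% over 10 pairs of 1 called higher and 1 called lower. The androgen receptor half-site AGAACA was in the promoters of Klk1b24 and Klk1b3 and in 19.0% of all promoters. The SF-1 site CAAGGTCA was in those of Klk1b21 and Klk1 and in 1.56% of all promoters. The cyclic AMP response element TGACGTCA was in 0 of the 14 and in 1.79% of all promoters. The full androgen response element, AGAACA and TGTTCT with 3 bases between them, was in 0 of the 14 and in 0.00913% of all promoters. Both strands were searched throughout, and every full element also counts as a half-site.

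**Figure D1:**
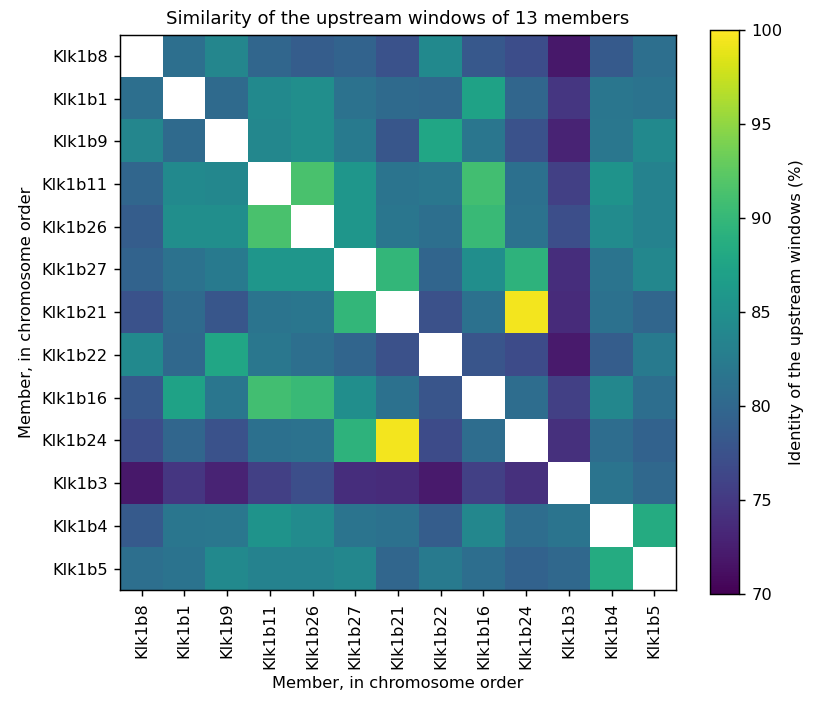
Identity in percent of the windows that end in TTTAAA, of the 13 coding members with that motif, each compared with each, in chromosome order on both axes. The pair of Klk1b21 and Klk1b24 stands out at 99.5%, and the windows of Klk1b3 are the least like the others.

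Klk1b21, Klk1b24 and Klk1b27 made up most of the kallikrein counts of the deletion testis, and their CPM was 9.33- to 19.8-fold higher there than in WT. Klk1b24, a trypsin-like protease of Leydig cells, had 264, 259 and 407 counts in the deletion libraries, against 11, 15 and 6 in the WT libraries. The deletion libraries all stood far above the WT ones, without overlap. Its level was 28.7 ± 8.60 CPM in the deletion, against 1.43 ± 0.508 CPM in WT (SD, n = 3 each), a log2 fold change of 4.31 with an SE of 0.31 (adjusted p = 2.70e-09 by edgeR's quasi-likelihood test, with p-values adjusted by Benjamini and Hochberg's method over all genes). Of the 17038 genes tested, 91 had a larger log2 fold change than Klk1b24.

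Klk1b21, a close relative of Klk1b24, had 281, 406 and 469 counts in the deletion libraries, against 23, 26 and 28 in the WT libraries. The WT libraries lay close together and below all deletion libraries. It averaged 35.6 ± 9.42 CPM in the deletion, against 3.50 ± 0.464 CPM in WT (SD, n = 3 each), a log2 fold change of 3.35 with an SE of 0.24 (adjusted p = 3.31e-09 by edgeR's quasi-likelihood test). Klk1b27, the third of the Leydig cell kallikreins, had 150, 247 and 323 counts in the deletion libraries, against 21, 13 and 18 in the WT libraries. Again the groups did not overlap, and deletion replicate 3 was the highest library. Its averages were 22.2 ± 8.46 CPM in the deletion, against 2.43 ± 0.880 CPM in WT (SD, n = 3 each), a log2 fold change of 3.22 with an SE of 0.34 (adjusted p = 2.84e-07 by edgeR's quasi-likelihood test).

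The 3 enzymes were further compared with each other within each library, where scaling plays no part. There were 0.940, 0.638 and 0.868 counts of Klk1b24 per count of Klk1b21 in the deletion libraries, against 0.478, 0.577 and 0.214 in the WT libraries. The groups did not overlap, and the mean log2 ratio was 1.05 higher in the deletion, at a two-sided exact permutation p of 0.1, which is as low as 3 against 3 libraries can go, and 0.3 adjusted over 3 pairs. In the same comparison the log2 ratio of Klk1b24 to Klk1b27 was 1.18 higher in the deletion (exact p = 0.2, adjusted 0.3), with overlapping groups. The log2 ratio of Klk1b21 to Klk1b27 differed by 0.13 (exact p = 0.8), less than its SD in either group, 0.184 in the deletion and 0.436 in WT. With 6 to 28 counts per WT library these ratios are imprecise: the exact 95% interval of the Klk1b24 to Klk1b21 ratio in WT replicate 3 ran from 0.0725 to 0.527, counting error only.

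**Figure D2:**
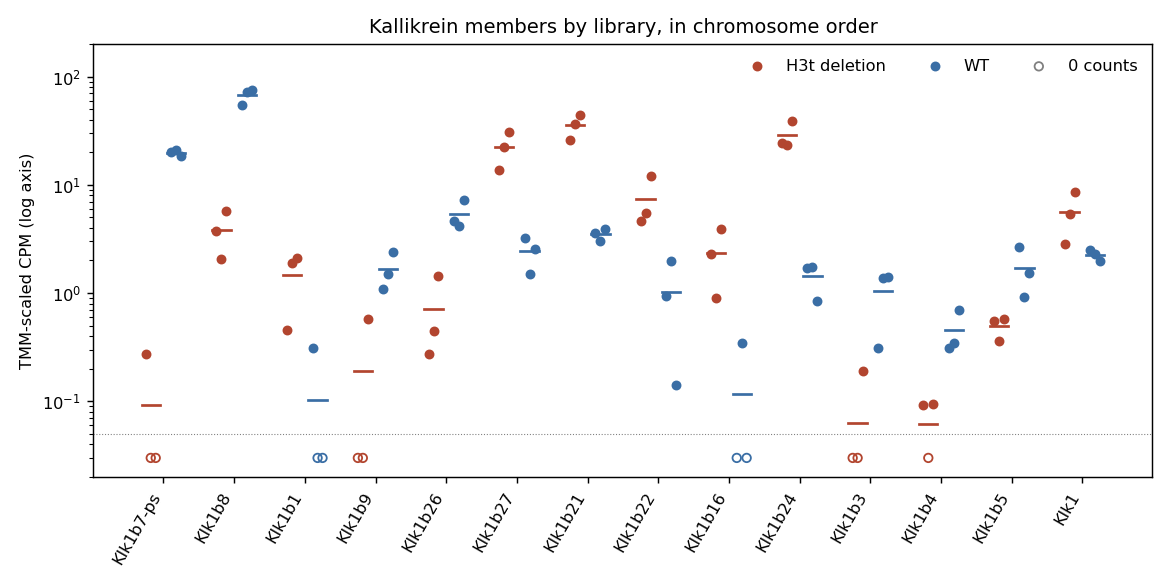
TMM-scaled CPM of the 14 members with 10 or more counts, on a log axis, in chromosome order, with H3t deletion libraries left and WT libraries right at each gene. Points are libraries, bars are group means, and open points below the dotted line are libraries with 0 counts. The groups overlap for none of the 14, and such separation is common: 39.2% of tested genes separate upwards and 46.7% downwards.

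Klk1b22, Klk1b16 and Klk1 were less abundant and also higher in the deletion under TMM scaling, though the estimates for Klk1b22 and Klk1 changed sign when all libraries were given the same Leydig marker level, as described further on. Klk1b22, known as an epidermal growth factor-binding protein that can also cut nerve growth factor, had 50, 61 and 126 counts in the deletion libraries, against 6, 17 and 1 in the WT libraries. The highest WT library stayed below the lowest deletion library. It averaged 7.35 ± 4.02 CPM in the deletion, against 1.01 ± 0.917 CPM in WT (SD, n = 3 each), a log2 fold change of 2.78 with an SE of 0.56 (adjusted p = 0.000298 by edgeR's quasi-likelihood test). That value was 3.78 without WT replicate 2 and 2.25 without deletion replicate 3.

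Klk1b16, also called gamma-renin for its renin-like activity in the submandibular gland, had 25, 10 and 41 counts in the deletion libraries, against 0, 3 and 0 in the WT libraries. Its WT signal rests on 3 counts in 1 library. After scaling, its summed counts were 17.3 times as high in the deletion as in WT, with a 95% interval of 5.70 to 85.7 for counting error only, and the fitted log2 fold change was 4.01 with an SE of 0.89 (adjusted p = 0.000625 by edgeR's quasi-likelihood test). The fitted value was 7.45 without WT replicate 2, the library with the 3 counts.

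Klk1, the kinin-releasing enzyme, had 31, 60 and 91 counts in the deletion libraries, against 16, 20 and 14 in the WT libraries. Deletion replicate 1 was close to the WT range and replicate 3 far above it. It averaged 5.63 ± 2.91 CPM in the deletion, against 2.26 ± 0.263 CPM in WT (SD, n = 3 each), a log2 fold change of 1.31 with an SE of 0.42 (adjusted p = 0.00900 by edgeR's quasi-likelihood test). Of the 9 calls it was the one lost when a library was left out or the test exchanged: the log2 fold change was 0.87 (adjusted p = 0.0839, same test) without deletion replicate 3, and 1.15 (adjusted p = 0.0585) with limma voom. Klk1b1 was not tested. It had 5, 21 and 22 counts in the deletion libraries, against 2, 0 and 0 in the WT libraries, which is 16.4 times as high in the deletion over the summed counts (95% interval 4.29 to 139, counting error only).

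The libraries of the deletion group were not alike for these genes. Deletion replicate 3 gave the highest CPM for all 6 members called higher, and the ratio of the highest to the lowest deletion library was 1.66 for Klk1b24, 1.73 for Klk1b21, 2.23 for Klk1b27, 2.61 for Klk1b22, 3.04 for Klk1 and 4.32 for Klk1b16. The labels give no batch, so nothing in them marks this library off.

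Klk1b8 and its neighbour Klk1b7-ps, at the far end of the cluster from Klk1, went the other way and held most kallikrein counts of the WT testis. Both overlap the span of the antisense gene Gm44756. With the strand setting not given and exon overlap not checked, its reads may be among their counts. Klk1b8, a coding member, had 41, 23 and 60 counts in the deletion libraries, against 351, 628 and 532 in the WT libraries. All WT libraries stood well above all deletion libraries. It averaged 3.84 ± 1.82 CPM in the deletion, against 67.3 ± 11.2 CPM in WT (SD, n = 3 each), a log2 fold change of -4.14 with an SE of 0.24 (adjusted p = 2.45e-10 by edgeR's quasi-likelihood test).

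Klk1b7-ps is annotated as a pseudogene and shares little sequence with the others. It had 3, 0 and 0 counts in the deletion libraries, against 129, 182 and 132 in the WT libraries. Of its 446 counts, 3 came from the deletion group, all from 1 library. Over the summed counts it was 216 times as high in WT as in the deletion (95% interval 73.6 to 1053, counting error only), and the fitted log2 fold change was -7.55 with an SE of 0.48 (adjusted p = 5.72e-10 by edgeR's quasi-likelihood test). Without deletion replicate 1, the only deletion library with counts, the fitted value was -10.44.

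Klk1b26, known from the submandibular gland as a prorenin-converting enzyme, had 3, 5 and 15 counts in the deletion libraries, against 30, 36 and 52 in the WT libraries. All deletion libraries lay below all WT libraries. It averaged 0.717 ± 0.619 CPM in the deletion, against 5.38 ± 1.69 CPM in WT (SD, n = 3 each), a log2 fold change of -2.89 with an SE of 0.54 (adjusted p = 0.000131 by edgeR's quasi-likelihood test), and -3.83 without deletion replicate 3. Klk1b26 shares 9.72% of its transcript 50-mers with Klk1b8, which shares 16.1% of its own with Klk1b26.

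The remaining members with 10 or more counts were too low to be tested and were all lower in the deletion. Klk1b9, an epidermal growth factor-binding protein, had 0, 0 and 6 counts in the deletion libraries and 7, 13 and 17 in the WT libraries. Klk1b3, the gamma subunit of the nerve growth factor complex of the submandibular gland, had 0, 0 and 2 counts in the deletion libraries and 2, 12 and 10 in the WT libraries. In CPM neither gene's groups overlapped, though for Klk1b3 the highest deletion library and the lowest WT library both had 2 counts and differ by scaling alone.

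Klk1b4, the alpha subunit of the same complex, had 1, 0 and 1 counts in the deletion libraries and 2, 3 and 5 in the WT libraries, values too low to describe further. Klk1b5 had 6, 4 and 6 counts in the deletion libraries and 17, 8 and 11 in the WT libraries. Without a filter on low counts, Klk1b3, Klk1b5 and Klk1b9 were also called lower and Klk1b1 higher by edgeR's quasi-likelihood test. That fit gave much smaller p-values. For Klk1b8, at nearly the same log2 fold change, the adjusted p was 1.99e-107, against 2.45e-10 with the filter (same test). Its calls on so few counts are therefore weak.

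Counted together, 6 of the 9 tested members were called higher, against 38.4% of all genes tested, and 3 lower, against 46.1%, with the Klk1 and Klk1b22 estimates among the 6 turning negative under scalings described next. The filter asked for 1.13 CPM, before TMM scaling, in enough libraries. Klk1b16, Klk1b22 and Klk1b24 met it in 0, 1 and 2 of the WT libraries, and Klk1b7-ps and Klk1b26 in 0 and 1 of the deletion libraries, so these 5 passed mainly through the group in which they are high and the count of calls supports nothing by itself. The CPM of the 14 members with 10 or more counts did not overlap between the groups, with 7 higher and 7 lower in the deletion. Of all genes tested, 39.2% were likewise higher and 46.7% lower without overlap.

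In chromosome order the 3 members called lower came before all 6 called higher, from Klk1b7-ps, Klk1b8 and Klk1b26 to Klk1b27, Klk1b21, Klk1b22, Klk1b16, Klk1b24 and Klk1. Untested Klk1b9, lower in the deletion, and Klk1b1, higher in the deletion, lay among the lower ones, and untested Klk1b3, Klk1b4 and Klk1b5, lower in the deletion, lay among the higher ones.

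**Figure D3:**
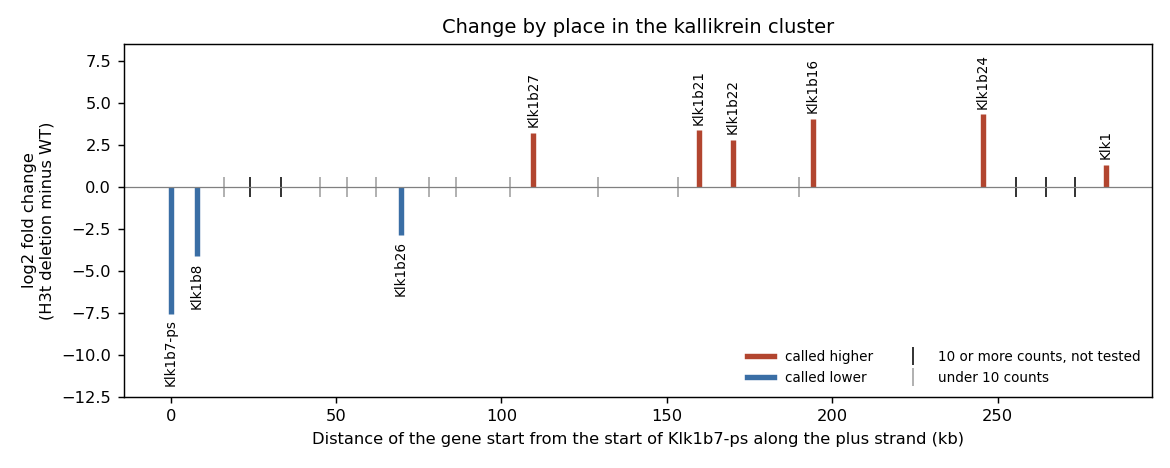
Fitted log2 fold change, H3t deletion minus WT under TMM scaling, of the 9 tested members by distance in kilobases from the start of Klk1b7-ps along the plus strand. Bars up were called higher, bars down lower, and ticks mark members with 10 or more counts that were not tested and rows under 10 counts. Klk1 and Klk1b22 point up here but have negative estimates when all libraries are given the same Leydig marker level.

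The size of these changes depends on what the libraries are set equal to. Scaling by library totals alone gave a majority of higher calls over all genes, 56.6% against 45.4% under TMM, with the same 9 members called in the same directions. When every library was set to an equal mean level of the 8 Leydig identity genes, which moved the median log2 fold change of all genes from -0.19 to -3.35 and left 0.428% of genes called higher, Klk1b24 stayed higher in the deletion with a log2 fold change of 1.14 and an SE of 0.35 (adjusted p = 0.00467 by edgeR's quasi-likelihood test). Klk1b21, at 0.19 with an SE of 0.26 (adjusted p = 0.501), and Klk1b27, at 0.06 with an SE of 0.35 (adjusted p = 0.871), were not called in that fit, which does not show that they were equal in the groups. Klk1b16 was at 0.94 (SE 1.06, adjusted p = 0.399) and Klk1b22 at -0.40 (SE 0.59, adjusted p = 0.522), both uncalled by edgeR's quasi-likelihood test, and Klk1 was called lower at -1.85 (SE 0.44, adjusted p = 0.000568).

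With the same mean level of the 9 Sertoli genes in every library, with a median of all genes of -2.35 and 3.99% of genes called higher, Klk1b24 was at 2.17 (adjusted p = 9.14e-06), Klk1b21 at 1.19 (adjusted p = 0.000525) and Klk1b27 at 1.04 (adjusted p = 0.0142), all called higher by edgeR's quasi-likelihood test. Klk1b16 at 1.98 (adjusted p = 0.0739), Klk1b22 at 0.67 (adjusted p = 0.293) and Klk1 at -0.85 (adjusted p = 0.0869) were not called there. Klk1b8, Klk1b7-ps and Klk1b26 were called lower under both, at -7.30, -10.62 and -6.04 with the Leydig list and -6.29, -9.63 and -5.05 with the Sertoli list, fits in which 90.4 and 76.1% of all genes were called lower.

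**Figure D4:**
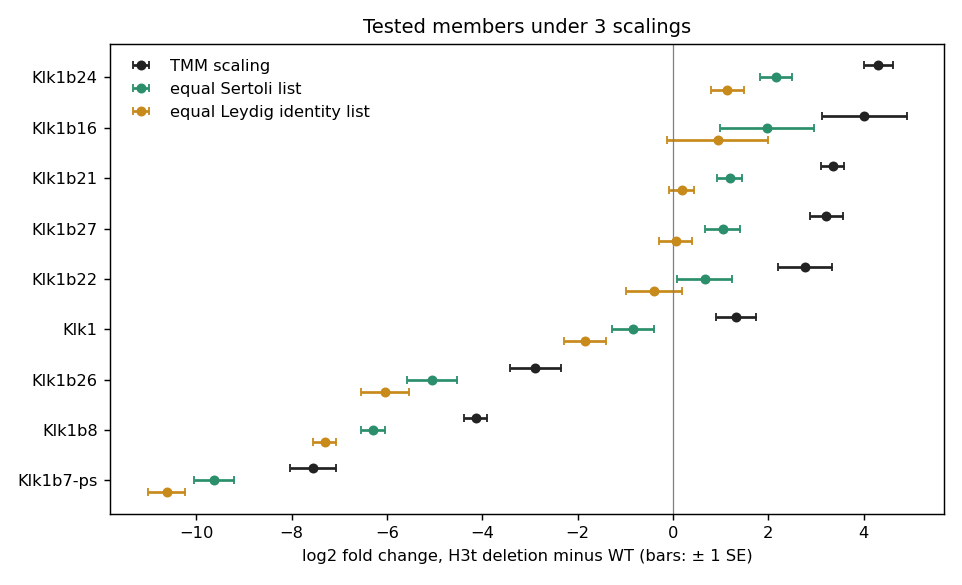
Fitted log2 fold change, H3t deletion minus WT, of the 9 tested members under TMM scaling and with all libraries given the same level of the Sertoli list or of the Leydig identity list. Bars are 1 SE. Klk1b24, Klk1b21, Klk1b27 and Klk1b16 have estimates above 0 under all 3, though of these only Klk1b24 was called higher under all 3. Klk1 and Klk1b22 cross 0, and Klk1b8, Klk1b7-ps and Klk1b26 are below 0 under all 3.

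The family as a whole took a small share of each library. It held 872, 1098 and 1572 counts in the deletion libraries, against 617, 977 and 826 in the WT libraries. That is 0.00970, 0.0126 and 0.0189% of all counts in the deletion libraries, against 0.00768, 0.00913 and 0.00921% in the WT libraries, and the groups did not overlap. The mean share was 0.00505 percentage points higher in the deletion (two-sided exact permutation p = 0.1, the lowest possible). It was 0.00840 points with mitochondrial genes left out of the total and 0.0115 points without Klk1b8 and Klk1b7-ps, both without overlap between the groups (exact p = 0.1 each). It was 0.00245 points without deletion replicate 3, and without Klk1b24 the groups overlapped, with a difference of 0.00156 points (exact p = 0.7). All these shares are of raw library totals, without TMM factors. Under TMM scaling, 1 count was worth 0.0918, 0.0901 and 0.0950 CPM in the deletion libraries, against 0.155, 0.116 and 0.140 in WT. On that scale the family's summed CPM overlapped between the groups, so the rise without overlap holds for shares of raw totals only.

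The make-up of the family differed far more than its total. Klk1b21, Klk1b24 and Klk1b27 together made up 79.7, 83.1 and 76.3% of the family's counts in the deletion libraries, against 8.91, 5.53 and 6.30% in the WT libraries. Klk1b8 and Klk1b7-ps made up 5.05, 2.09 and 3.82% in the deletion libraries, against 77.8, 82.9 and 80.4% in the WT libraries. The deletion and the WT testis thus had different leading members, and no library was in between. Each of the 14 members had a share of the family that did not overlap between the groups. The exact p was 0.1 each, 0.1 adjusted over the 14. Separation was common in the whole data: the CPM of 39.2% of tested genes separated upwards and that of 46.7% downwards. That background is for CPM, not for shares within a family. Klk1b1, Klk1b3, Klk1b4, Klk1b5 and Klk1b9 were too low to be tested, with 12 counts in all for Klk1b4. The largest shifts were those of Klk1b8, at 3.54 ± 1.33% in the deletion and 61.9 ± 4.30% in WT, and of Klk1b21, at 33.0 ± 3.64% in the deletion and 3.26 ± 0.545% in WT (SD, n = 3 each). Shares are tied to each other, since a larger share of one member lowers those of the rest.

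**Figure D5:**
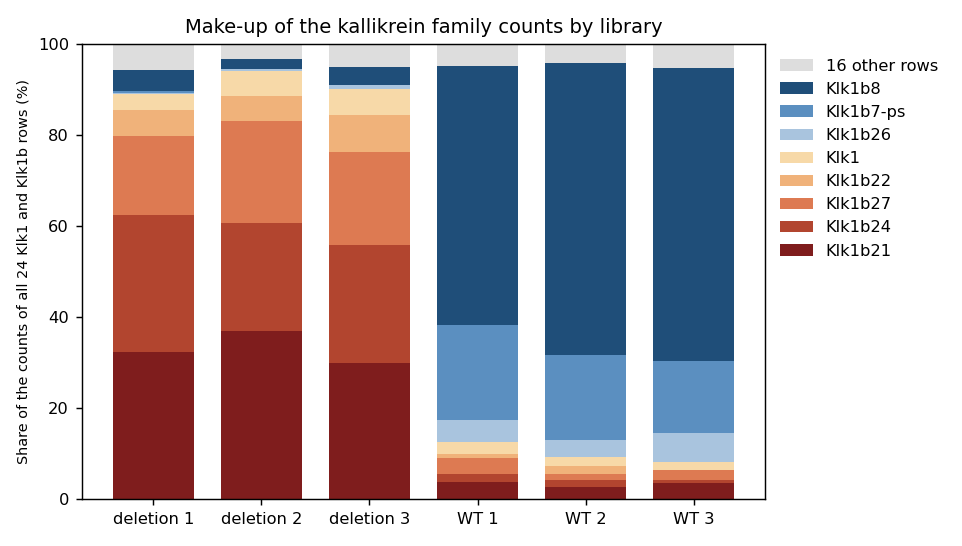
Share in percent of the counts of all 24 Klk1 and Klk1b rows, by library, with H3t deletion libraries left and WT libraries right. Red and orange segments are Klk1b21, Klk1b24, Klk1b27, Klk1b22 and Klk1, blue segments are Klk1b26, Klk1b7-ps and Klk1b8, and grey is the other 16 rows. Klk1b21, Klk1b24 and Klk1b27 fill 76.3 to 83.1% of the deletion bars and 5.53 to 8.91% of the WT bars.

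Levels per kilobase of exon put the members in different orders. In the deletion, the TMM-scaled CPM per kilobase was 40.9 ± 10.8 for Klk1b21, 32.7 ± 9.80 for Klk1b24 and 25.0 ± 9.51 for Klk1b27 (SD, n = 3). The means of neighbours lie within an SD, but the SD is the spread between libraries. Within each deletion library Klk1b21 was above Klk1b24, and Klk1b24 above Klk1b27. Klk1b22 followed at 8.60 ± 4.71, Klk1 at 5.23 ± 2.70 and Klk1b8 at 4.48 ± 2.11, again with overlapping spreads, and the other members averaged at most 1.71. Klk1b22 was above Klk1 within each deletion library, while Klk1 and Klk1b8 changed order between libraries. In WT, the same measure was 78.4 ± 13.02 for Klk1b8 and 28.8 ± 1.85 for Klk1b7-ps, which are separated by more than their spread (SD, n = 3). Klk1b21 at 4.02 ± 0.532, Klk1b26 at 3.88 ± 1.22, Klk1b27 at 2.73 ± 0.990 and Klk1 at 2.09 ± 0.244 came next in WT, with neighbours within their spreads, and Klk1b24 stood at 1.63 ± 0.578, beside Klk1b9 at 1.91 ± 0.764. Per kilobase of transcript sequence that no other gene shares, the deletion means were 61.1 for Klk1b21, 52.4 for Klk1b24 and 30.9 for Klk1b27, and the WT means 6.01 for Klk1b21, 3.38 for Klk1b27, 2.61 for Klk1b24 and 2.44 for Klk1b9. The level of Klk1b24 relative to Klk1b27 and Klk1b9 therefore depends on whether shared sequence is counted in the length.

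Set against the cells that the Leydig cell kallikreins are known from, the family's summed CPM stood lower relative to the Leydig list in all 3 deletion libraries. Its log2 level minus the mean log2 level of that list was -1.63, -1.30 and -0.80 in the deletion libraries, against 1.72, 2.14 and 2.005 in the WT libraries. The groups did not overlap, and the difference was -3.20 (two-sided exact permutation p = 0.1). Its size and sign depend on the members taken: without Klk1b8 and Klk1b7-ps it was -0.90 (exact p = 0.1), and for Klk1b24 alone it had the other sign, 1.19 (exact p = 0.1). Against the Sertoli list the family stood at -0.06, 0.20 and 0.75 in the deletion libraries, against 2.48, 2.42 and 2.68 in the WT libraries, a difference of -2.23 (exact p = 0.1). Without Klk1b8 and Klk1b7-ps that difference was 0.073 (exact p = 1.0), with overlapping groups.

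Markers of organs that are rich in kallikreins were looked at beside these values. Of 9 submandibular gland markers, Smr2, Smr3a and Dcpp2 had 0 counts in every library, and the summed CPM of the list was 70.1 to 84.2 in the deletion and 13.4 to 18.3 in WT. Amy1 and Aqp5 carried almost all of that sum, with 46.8, 58.4 and 63.0 CPM of Amy1 in the deletion libraries, against 13.3, 12.05 and 16.6 in WT, and 23.0, 18.8 and 20.6 CPM of Aqp5 in the deletion libraries, against 2.02, 0.695 and 1.40 in WT. Both rose under TMM scaling. Of 8 epididymal markers, Crisp1, Lcn5, Lcn8 and Lcn9 had 0 counts in every library, and the list summed to 8.93 to 14.1 CPM in the deletion and 98.7 to 131 in WT. Cst8 alone gave 9.91, 13.2 and 8.17 CPM of that in the deletion libraries, against 118, 95.4 and 127 in WT, so the sum describes 1 gene. Spermatid markers summed to 4.56 to 51.6 CPM in the deletion and 17555 to 19412 in WT, moving in the same direction as Klk1b8 and Klk1b7-ps. The 5 spermatocyte markers, all called lower, moved that way too, with 197 to 242 CPM in the deletion and 5478 to 5679 in WT. Leydig markers summed to 3613 to 3852 CPM in the deletion and 386 to 448 in WT, moving in the same direction as Klk1b24. The 9 Sertoli markers, all called higher, also moved with Klk1b24, with 3352 to 3471 CPM in the deletion and 641 to 740 in WT. So did the 5 macrophage markers, all called higher, with 383 to 442 CPM in the deletion and 85.4 to 94.8 in WT, and the 3 endothelial markers, all called higher, with 69.8 to 71.3 CPM in the deletion and 22.9 to 23.9 in WT. The part of these cell types in the results was not tested.

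Few transcripts of the kinin system that Klk1 feeds were counted. Of 6 genes of kinin generation and action, 2 could be tested and both fell, among 46.1% of all genes called lower. Kng1, a kininogen, had 0 counts in every library, and Kng2, Bdkrb1 and F12 were too low to be tested. Klkb1, the plasma kallikrein that shares the name but not the family, had 0 counts in the 3 deletion libraries, against 23, 16 and 24 in the WT libraries, so it was at least 31.8-fold lower in the deletion against a floor of 3 counts over the group. Bdkrb2, the constitutive bradykinin receptor, had 3, 7 and 8 counts in the deletion libraries, against 10, 16 and 14 in the WT libraries, with a log2 fold change of -1.67 and an SE of 0.53 (adjusted p = 0.00822 by edgeR's quasi-likelihood test). The median log2 fold change of the 2 was -4.70 as fitted and -3.33 with Klkb1 at its bound.

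Of 16 peptidases that cut kinins, 12 were tested, 6 of them were called higher and 4 lower, beside 38.4% called higher and 46.1% lower over all genes, and the median log2 fold change was 0.26, against -0.19 over all genes. Ace, angiotensin-converting enzyme, which has a germ cell isoform, fell to 80.6 ± 10.4 CPM in the deletion, against 557 ± 4.40 CPM in WT (SD, n = 3 each), a log2 fold change of -2.79. Thop1, thimet oligopeptidase, fell by 3.62 on the log2 scale. Mme, neprilysin, rose by 2.91 and Xpnpep1, an aminopeptidase, by 0.34. All 4 were called by edgeR's quasi-likelihood test.

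Of 20 serine protease inhibitors, 11 were tested, 6 were called higher and 3 lower, beside 38.4 and 46.1% over all genes, with a median log2 fold change of 2.59. Serpina5, the protein C inhibitor, which inhibits tissue kallikrein in humans, averaged 403 ± 13.2 CPM in the deletion, against 66.8 ± 2.79 CPM in WT (SD, n = 3 each), a log2 fold change of 2.59 with an SE of 0.09 (adjusted p = 2.93e-13 by edgeR's quasi-likelihood test). Serping1, the C1 inhibitor that restrains plasma kallikrein, rose by 2.71 on the log2 scale. Spink2, an acrosin inhibitor of germ cells, fell by 8.11 and Pebp1 by 2.34.

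Of 9 growth factor, renin and receptor partners, 8 were in the table and 5 were tested, with 4 called higher and 0 lower by edgeR's quasi-likelihood test, beside 38.4 and 46.1% over all genes, and a median log2 fold change of 2.37. Agt, angiotensinogen, averaged 1002 ± 153 CPM in the deletion, against 100.4 ± 24.02 CPM in WT (SD, n = 3 each), a log2 fold change of 3.31. Igfbp3, an insulin-like growth factor carrier, rose by 4.23, Ren1, renin, by 2.37 on 39 counts in the deletion and 5 in WT, and F2r, a thrombin receptor, by 0.73. Over the 4 lists together, 30 genes were tested, 16 were called higher and 9 lower, beside 38.4 and 46.1% of all genes and 84.5% in either direction, so the number of calls was near that of any genes. The median log2 fold change was 0.58. These directions hold for TMM scaling: with an equal Leydig identity list 2 were called higher and 21 lower, and with an equal Sertoli list 8 higher and 17 lower.

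The genes whose log2 CPM was most like that of Klk1b24 over the 6 libraries, among 9466 genes that averaged 10 CPM or more, were Spryd3, Klf13, Glud1, Slit3 and Zbtb16, with Pearson's r of 0.9993, 0.9991, 0.9989, 0.9987 and 0.9982. The 6 points form 2 clusters, one for each genotype, so r is given as a description of likeness alone. Klf13 averaged 38.8 ± 4.62 CPM in the deletion, against 7.04 ± 1.35 CPM in WT, and Spryd3 71.3 ± 3.93 CPM in the deletion, against 44.3 ± 2.13 CPM in WT (SD, n = 3 each), so genes of quite different fold change were among them.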

How the data were processed

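The deposited table holds raw counts for each Ensembl gene, made by the authors with Trim Galore, HISAT2 on GRCm38 and featureCounts, per the submitters' processing notes. No tool version, annotation release, strand setting or rule for multi-mapped reads is given in the sources used here. The library kit was a stranded SMART-Seq kit, as the labels' protocols state. All 54100 table genes were found in GENCODE M21, which supplied coordinates and transcripts, and RefSeq (GRCm38.p6) supplied promoters for the 14 coding members. The members, gene lists and tests were chosen with earlier results of these data known.

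All genes were tested together in R 4.3.3 with edgeR 4.0.16. After filterByExpr, 17038 genes were left, and TMM factors scaled the libraries. Deletion and WT were set against each other with the quasi-likelihood test, and Benjamini-Hochberg adjusted p-values up to 0.05 were called. The biological coefficient of variation was 13.1%. No pair of libraries of a group agreed within sampling noise, since the chi-square per degree of freedom was at least 4.75 and at most 7.32. Library totals of 8037826 to 10702930 counts make 1 count worth 0.0901 to 0.155 CPM. For a gene with no count in a group the bound on its fold uses 3 counts over that group, which is 0.0922 CPM in the deletion or 0.135 CPM in WT, and bounds and intervals cover counting error only. Marker list levels and correlations used log2 CPM with a prior count of 2. Exact two-sided permutation tests over 6 libraries (SciPy 1.17.1) served for values within a library. Pairwise identity was computed on coding sequences, in place of proteins, with Biopython 1.88, and DESeq2 1.42.0 and limma 3.58.1 were alternatives. The edgeR fit was tested on simulated data in which few genes changed, as many up as down. Most genes were called in the real data, so that test does not cover scaling under so broad a change. The other steps were not simulated.

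Members were named where they had 10 or more counts in all, and of each gene list up to 4 called genes with the highest mean CPM. Alternatives were other scalings, filters, thresholds and tests, a total without mitochondrial genes and other sets of members. Further ones were whole counts divided by the length of unshared sequence, each library left out and a block of adjacent title numbers.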

Additional observations from a re-analysis of the deposited data

How the results depend on the processing

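Of 153 recomputed member fold changes, 142 kept their direction and their side of the threshold, 8 lost the call and 3 reversed. All 3 reversals came from scaling to a cell type list: Klk1b22 at -0.40 and Klk1 at -1.85 with an equal Leydig identity list, and Klk1 at -0.85 with an equal Sertoli list. The number of members called higher, 6 under TMM, was 1 with the Leydig list and 3 with the Sertoli list, and 5 to 7 with each library left out. The number called lower, 3 under TMM, was 6 with no filter on low counts and 3 to 6 with each library left out, where the filter admitted 10 to 12 members. Of the pathway lists, 16 genes were called higher and 9 lower under TMM, 2 and 21 with the Leydig list, 8 and 17 with the Sertoli list, and 15 to 17 and 7 to 9 with each library left out. Scaling by upper quartiles, library totals or DESeq2 size factors moved the median log2 fold change of all genes from -0.19 to 0.35, 0.45 and -0.36 and the share of higher calls from 45.4% to 55.1, 56.6 and 42.3%, and the same 9 members were called in the same directions.

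With each library left out, the difference in the family's share of raw counts, without TMM factors, ran from 0.00245 to 0.00706 percentage points. That against the Leydig list ran from -3.42 to -3.01 and that against the Sertoli list from -2.46 to -2.05. The share difference was 0.00840 points with mitochondrial genes left out of the total and, chosen after seeing the data, 0.0115 points without Klk1b8 and Klk1b7-ps. Klk1b24 alone against the Leydig list gave 1.19. The family without Klk1b8 and Klk1b7-ps, chosen after seeing the data, gave 0.073 against the Sertoli list. The median share of shared sequence was 5.48% with 75-mers and 1.43% with 100-mers. All member shares kept their direction under the alternatives tried. With a library left out this was certain beforehand, since no share overlapped between the groups. The other alternative divided whole counts by the length of unshared sequence. The cause of these shifts was not tested. The labels give no shared replicate numbers, but numbers in the titles are adjacent across the groups for 5 libraries. What they mark is not stated. A replicate block on them, chosen after seeing the data, left WT replicate 2 alone in its block and called 5 members higher and 3 lower, with Klk1 at 1.09 (adjusted p = 0.0640, edgeR's quasi-likelihood test) as the call lost, and 16 list genes higher and 8 lower. Counts under 30 per WT library limit Klk1b24, Klk1b21, Klk1b27, Klk1b22, Klk1b16 and Klk1, and shared sequence limits all members but Klk1b7-ps. The overlap with the spans of antisense genes limits Klk1b7-ps, Klk1b8, Klk1b1, Klk1b9 and Klk1, as far as exons overlap, which was not checked.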

Other observations

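Among the 13 other kallikrein-related rows of the table, Klk2 to Klk15, 9 had 0 counts in every library and 1 was tested. That row, Klk2-ps, a pseudogene, had 0, 5 and 1 counts in the deletion libraries, against 27, 33 and 29 in the WT libraries. Klk8, neuropsin, had 0, 6 and 2 counts in the deletion libraries and 0 in each WT library, and Klk15 had 6 counts in WT replicate 2 alone.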
